A study of Mus musculus with 8 samples.

Results

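The genes described here carry out DNA replication and cell division. They were taken as a named list of 38 symbols, and all 38 were found among the 12701 genes of the deposited expression table. Of these, 16 act in S phase, when DNA is copied, and 22 act in mitosis or in preparing for it, when the copied chromosomes are separated. All 38 members had enough reads to be tested, among 11273 genes tested in all. RNA was sequenced from lung tissue-resident macrophages of C57BL/6 mice, which the labels also call alveolar macrophages. The d35 group has 3 libraries and the d15 group has 2, both from mice in which KP tumor cells injected into a tail vein had formed foci in the lung, and the naive group has 3 libraries from wild-type mice without tumor. The numbers 35 and 15 are days after tumor transplantation per the sample labels, whereas the growth protocol gives harvest between 15 and 30 days, so the later day is uncertain. The labels do not say whether KP or KP-GFP cells were given, nor whether libraries of 1 group are from separate animals. A p-value therefore measures only how far these samples spread, and that spread may be technical.

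Alveolar macrophages maintain their numbers in the adult lung largely by dividing in place. A cell that enters the cycle first phosphorylates the retinoblastoma protein family, which releases E2F transcription factors and switches on the genes that license origins, make deoxynucleotides and copy DNA. Later in the cycle a second wave of genes, controlled through the MuvB complex, B-MYB and FOXM1 at promoter elements such as the CHR (cell cycle genes homology region) and the CCAAT box, makes the cyclins, kinases, motors and kinetochore proteins of mitosis. Transcripts of both waves serve widely as a readout of proliferation in a cell population.

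The libraries held 27465745 to 39572173 recovered reads, and a member held between 289 and 5964 reads in a library. Values are given as scaled CPM, the deposited CPM after the authors' scaling of library sizes. The sorted cells carried the markers of their label: Siglecf averaged 719 scaled CPM in naive, 574 in d15 and 591 in d35 libraries, and Cd68 964 in naive, 1078 in d15 and 1400.3 in d35 libraries. Itgax averaged 777 to 902 scaled CPM in the 3 groups, and Mertk 443 to 472. The summed values of 15 alveolar macrophage markers lay at 30300 to 36870 in naive, 38110 to 42130 in d15 and 40390 to 54560 in d35 libraries, but most of the sum was Chil3, which averaged 22080 in naive and 33501 in d35 libraries (not called). Of the 15, 8 had a positive and 7 a negative fold change at d35 against naive cells, with a median of 0.07. Cd68, Fabp5, Car4 and Ear2 were called higher, and Siglecf was called lower (log2 fold change -0.29, adjusted p = 0.033, limma), which held in 10 of 19 alternatives. Calls were 26.7% of these markers higher and 6.67% lower, beside 9.86% and 6.32% of all genes tested. Cd68 and Fabp5 held in all 19, Car4 in 17 and Ear2 in 14. The log2 fold change of Ear2 at d35 was 0.35, and -0.01 with a correction for transcript length. At d15 against naive cells Pparg (log2 fold change 0.64) and Ear2 (0.55) were called higher and Lpl (-0.77) lower. Those are 13.3% and 6.67% of the markers, beside 2.37% and 2.00% of all genes tested. The d15 calls held in 16 of 18 alternatives for Pparg, 12 for Ear2 and 15 for Lpl. Differences are given as log2 fold changes of the value plus 1, with the standard error (SE), and a gene is called where limma's p-value, adjusted over all genes tested, is under 0.05.

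Replication genes were lower in d35 macrophages than in naive macrophages. All 16 S phase members had a negative fold change, and 7 of them fell past the threshold: Mcm2, Mcm4, Mcm6 and Mcm7 of the replicative helicase, the primase and polymerase subunits Prim1 and Pola1, and Rrm2 of ribonucleotide reductase. The falls were modest, from 1.26-fold lower for Prim1 to 1.57-fold lower for Pola1. The 7 calls are 43.8% of the class, against 6.32% of all genes tested that were called lower at d35. The median log2 fold change of the 16 members was -0.36, and that of all genes tested was -0.00. In a bulk sample, fewer dividing cells and less of each transcript per cell cannot be told apart.

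**Figure D1:**
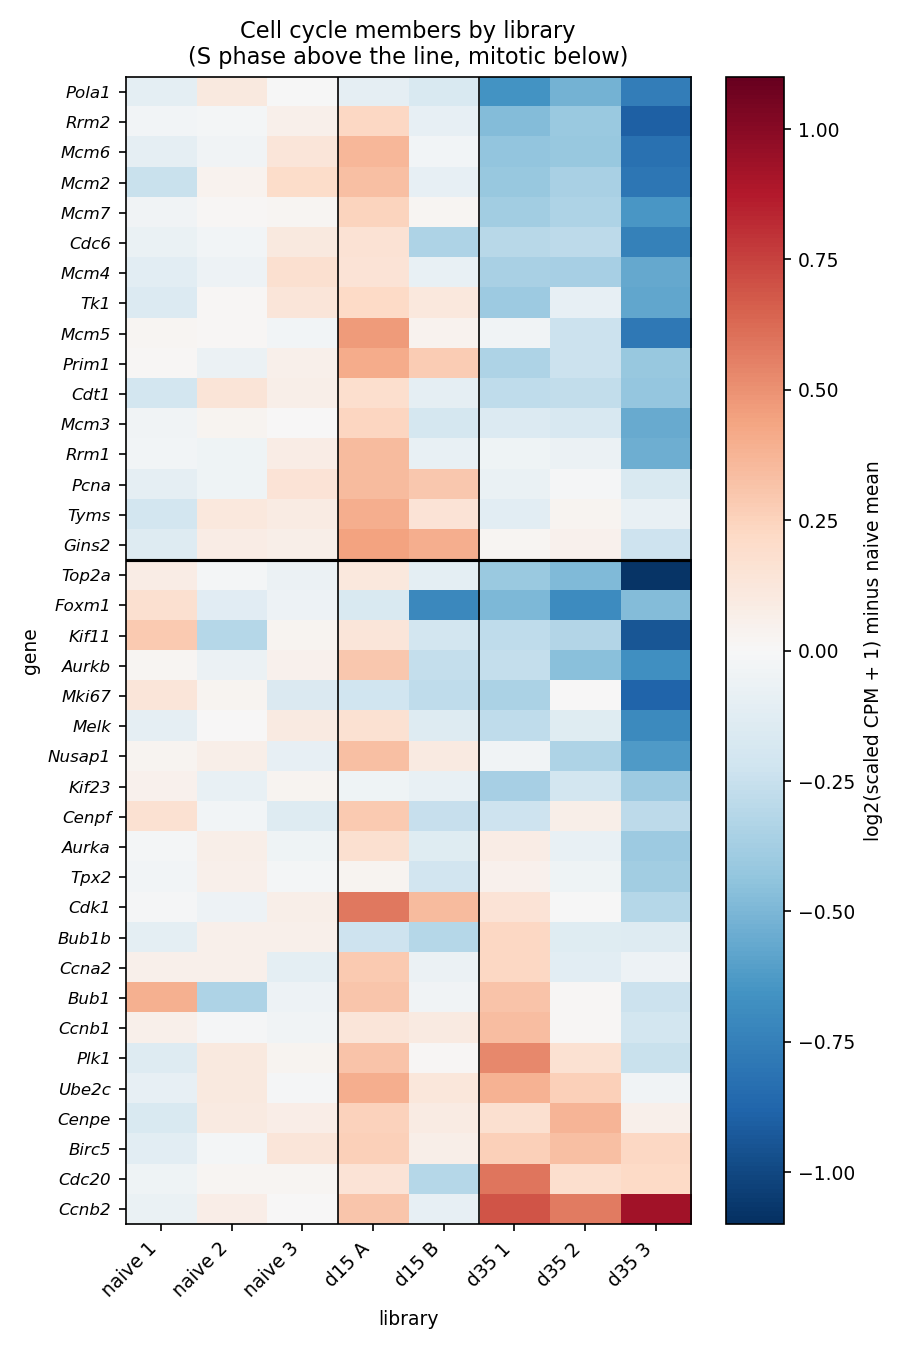
Heat map of each member (rows, S phase above the horizontal line and mitotic below) in each of the 8 libraries (columns), coloured by its log2(scaled CPM + 1) minus the naive mean. Most S phase rows are blue in the 3 d35 columns, while the lowest mitotic rows, down to Ccnb2, are red there, and d15 replicate A stands higher than d15 replicate B in every row.

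Mcm2 to Mcm7 form the hexamer that unwinds DNA at replication forks. Mcm6 (chromosome 1, 128331590 to 128359664 in mm10) had the highest value of the class, with 111, 113 and 85.3 scaled CPM in the 3 d35 libraries, against 141, 147 and 166 in the 3 naive libraries. The groups did not overlap, and the log2 fold change was -0.56 (SE 0.13, adjusted p = 0.0181, limma). Mcm2 had 51.4, 53.7 and 39.4 scaled CPM at d35, against 57.9, 70.9 and 79.6 in naive cells (log2 fold change -0.52, SE 0.15, adjusted p = 0.042, limma). Here the highest d35 library stood close under the lowest naive library. Mcm4 had 81.3, 80.6 and 70.2 scaled CPM at d35, against 96.1, 100.3 and 118 in naive cells (log2 fold change -0.43, SE 0.10, adjusted p = 0.0191, limma). Mcm7 had 47.5, 48.8 and 39.5 scaled CPM at d35, against 60.6, 62.8 and 62.9 in naive cells (log2 fold change -0.45, SE 0.10, adjusted p = 0.0136, limma). Exons of Mcm7 share 7.25% of their bases with Ap4m1 on the opposite strand, and whether counting used the strand is not given in the sources used here. The other helicase subunits did not pass the test. Mcm3 had 87.2, 85.1 and 65.6 scaled CPM at d35, against 93.9, 98.9 and 97.1 in naive cells (adjusted p = 0.135, limma). Mcm5 had 48.3, 42.0 and 28.3 scaled CPM at d35, against 50.3, 50.1 and 48.5 in naive cells (adjusted p = 0.179, limma). For both, every d35 library lay under every naive library, with d35 replicate 3 the farthest below.

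Primers for new strands come from the complex of DNA polymerase alpha and primase. Pola1, its catalytic polymerase subunit (chromosome X, 93304767 to 93632155 in mm10), had 17.4, 19.2 and 16.1 scaled CPM at d35, against 25.9, 30.3 and 28.0 in naive cells. Its log2 fold change was -0.65 (SE 0.10, adjusted p = 0.00346, limma), the largest fall of the class, and it stayed past the threshold in each of the 19 alternatives run for this comparison. Prim1, the small primase subunit, had 13.4, 14.4 and 12.6 scaled CPM at d35, against 17.3, 16.4 and 17.9 in naive cells (log2 fold change -0.33, SE 0.10, adjusted p = 0.0495, limma). The Prim1 call stood at the threshold and held in 7 of the 19 alternatives.

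Deoxynucleotides are supplied by ribonucleotide reductase and by the thymidylate enzymes. Rrm2, the small reductase subunit whose level is regulated through the cycle, had 53.8, 56.5 and 39.9 scaled CPM at d35, against 73.7, 73.8 and 77.9 in naive cells. The groups stood well apart (log2 fold change -0.59, SE 0.13, adjusted p = 0.0147, limma). Rrm1, the large subunit, had 101, 99.9 and 71.5 scaled CPM at d35, against 102, 101 and 110.4 in naive cells, and did not pass the test (adjusted p = 0.313, limma). Its d35 replicates 1 and 2 lay at or near the lower naive values, and d35 replicate 3 well below. Tk1, the thymidine salvage kinase, averaged 19.7 ± 3.54 scaled CPM at d35 and 25.3 ± 2.55 in naive cells (SD, n = 3 each; adjusted p = 0.0858, limma). Tyms, thymidylate synthase, averaged 18.5 ± 1.04 scaled CPM at d35 and 19.3 ± 2.34 in naive cells (SD, n = 3 each), with a 95% interval of the log2 fold change from -0.32 to 0.20.

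Pcna, the sliding clamp that tethers polymerases to DNA, was the S phase member of highest level per kilobase of its longest transcript. It had 83.1, 86.4 and 77.4 scaled CPM at d35, against 81.2, 84.5 and 96.8 in naive cells. The groups overlapped, and the 95% interval of the log2 fold change ran from -0.26 to 0.10. Gins2, a subunit of the GINS complex that completes the helicase, averaged 12.7 ± 1.41 scaled CPM at d35 and 13.2 ± 1.21 in naive cells (SD, n = 3 each), with an interval from -0.32 to 0.21. Exons of Gins2 share 67.3% of their bases with Gse1 on the opposite strand, so its values may hold reads of that gene. The loading factors Cdc6 and Cdt1 did not pass the test, with adjusted p = 0.0907 for Cdc6 and adjusted p = 0.0801 for Cdt1 (limma). Cdc6 averaged 9.64 ± 1.80 scaled CPM at d35 and 13.4 ± 0.956 in naive cells, and Cdt1 averaged 25.3 ± 1.58 at d35 and 32.1 ± 4.01 in naive cells (SD, n = 3 each). No d35 value of either gene reached a naive value.

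Over the class, 11 of 16 S phase members had every d35 library under every naive library, beside 15.9% of all genes tested. The count of calls depended on single libraries. With naive replicate 2 left out it was 1, with naive replicate 3 left out 2, and with d35 replicate 3 left out 4. It was 5 to 8 in the other alternatives. By gene, Mcm7 lost its call without naive replicate 2, Mcm6 and Rrm2 also without naive replicate 3, and Mcm4 without these or without d35 replicate 3. Mcm2 lost its call without any 1 of these 3 or d35 replicate 1, and also with the length correction (adjusted p = 0.0575, limma) and the replicate block (adjusted p = 0.0619, limma). The median stayed between -0.28, without d35 replicate 3, and -0.44, without d35 replicate 2.

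**Figure D2:**
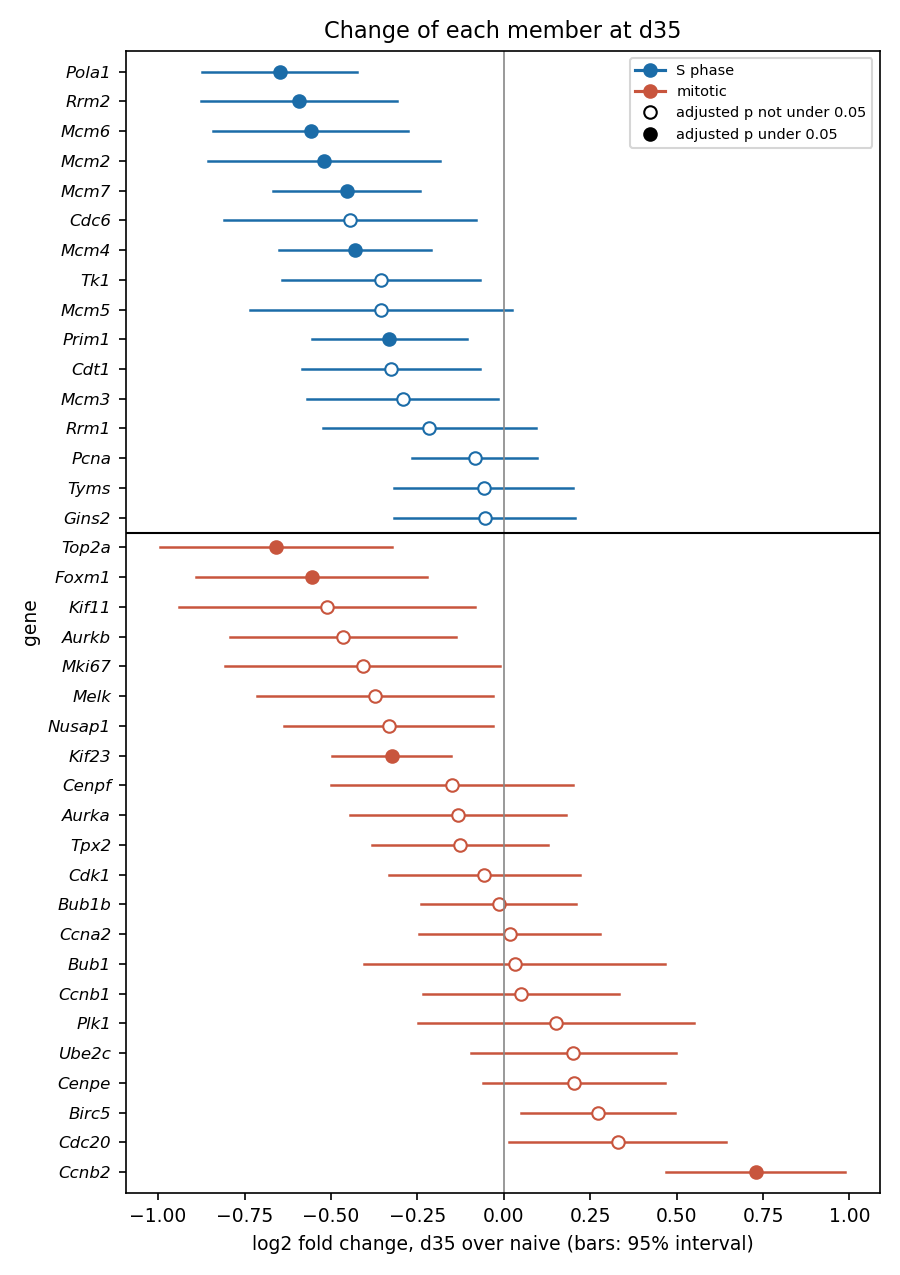
Log2 fold change of each member in d35 over naive libraries (x axis), with its 95% interval as a bar, and the members as rows, S phase in blue and mitotic in red. Filled points passed an adjusted p of 0.05: all 7 filled blue points lie left of 0, and of the 4 filled red points Ccnb2 lies right of 0 and Top2a, Foxm1 and Kif23 lie left.

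The upstream sequences of Mcm6 and Pola1, which carried the highest value and the largest fall of the class, are shown to let the E2F elements in them be read. They are the 250 bases before the annotated start from the RefSeq promoter table (build GRCm38.p6), on the minus strand, at chr1:128359706-128359955 for Mcm6 and chrX:93632156-93632405 for Pola1. Capitals mark exact matches, on either strand, to the CCAAT box and to an E2F element, searched as GCGGGAA, with the other forms being GCGCGAA as well as GCGCCAA.
Mcm6: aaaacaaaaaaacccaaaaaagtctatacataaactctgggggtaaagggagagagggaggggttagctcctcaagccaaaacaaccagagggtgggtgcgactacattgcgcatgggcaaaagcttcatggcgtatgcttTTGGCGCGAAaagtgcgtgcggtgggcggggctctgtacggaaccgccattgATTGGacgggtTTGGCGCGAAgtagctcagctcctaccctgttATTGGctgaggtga
Pola1: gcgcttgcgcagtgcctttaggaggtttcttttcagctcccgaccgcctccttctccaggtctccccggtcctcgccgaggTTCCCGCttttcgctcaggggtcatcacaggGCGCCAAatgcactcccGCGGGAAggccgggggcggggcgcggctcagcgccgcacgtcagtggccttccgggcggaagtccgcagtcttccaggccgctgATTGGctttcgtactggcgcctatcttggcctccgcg
In Mcm6 each of the 2 capital stretches TTGGCGCGAA holds 2 overlapping E2F matches, 1 per strand, so that 4 matches and 2 CCAAT boxes stand in the letters shown. Pola1 has 3 E2F matches and 1 CCAAT box there. Each gene has 1 further E2F match after the start, outside the letters shown. ATTGG is CCAAT read on the other strand. A match is a description of the letters and not a measured binding site.

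Mitotic genes did not move together at d35. Of 22 members, Ccnb2 rose past the threshold and Top2a, Foxm1 and Kif23 fell, while 18 did not pass the test. The 3 calls lower are 13.6% of the class and the 1 call higher is 4.55%, beside 6.32% and 9.86% of all genes tested. Of the 22 fold changes 9 were positive and 13 negative, and the median log2 fold change was -0.09. That median lay at 0.02 without d35 replicate 3 and at -0.00 with a correction for transcript length, so its sign was not stable.

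Ccnb2, cyclin B2, an activating partner of the mitotic kinase (chromosome 9, 70407692 to 70421547 in mm10), had 66.3, 61.1 and 78.0 scaled CPM at d35, against 38.6, 42.8 and 40.9 in naive cells. Every d35 library lay far above every naive library, a 1.66-fold rise (log2 fold change 0.73, SE 0.12, adjusted p = 0.00407, limma). The call held in all 19 alternatives. Its close partners did not pass the test. Ccnb1, cyclin B1, had 29.1, 22.9 and 19.6 scaled CPM at d35, against 23.7, 22.5 and 22.1 in naive cells, with an interval of the log2 fold change from -0.23 to 0.33. Ccna2, cyclin A2, had 48.6, 38.2 and 39.7 scaled CPM at d35, against 43.1, 43.2 and 38.3 in naive cells, with an interval from -0.25 to 0.28. Cdk1, the mitotic kinase itself, had 26.9, 24.0 and 19.2 scaled CPM at d35, against 23.9, 23.2 and 25.3 in naive cells, with an interval from -0.33 to 0.22. For these 3 genes the d35 values fell on both sides of the naive values. Ccna2 shares 12.5% of its exonic bases with Exosc9 on the opposite strand.

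The ratio of Ccnb2 to Ccnb1, which is free of any scaling between libraries, was 1.19, 1.41 and 1.99 on the log2 scale in d35 libraries, against 0.70, 0.93 and 0.89 in naive libraries. Over Cdk1 the log2 ratio of Ccnb2 was 1.30, 1.35 and 2.02 at d35, against 0.69, 0.88 and 0.69 in naive libraries. In both ratios d35 replicate 3, the library with the lowest values for most members, stood highest.

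Top2a, the topoisomerase that untangles sister chromatids (chromosome 11, 98992943 to 99024189 in mm10), had 64.5, 61.3 and 40.1 scaled CPM at d35, against 91.2, 84.7 and 82.4 in naive cells. The groups did not overlap, and the log2 fold change of -0.66 (SE 0.15, adjusted p = 0.0188, limma) was about that of Pola1. Foxm1, the transcription factor of the mitotic wave, had 12.4, 10.7 and 12.5 scaled CPM at d35, against 20.3, 16.3 and 17.2 in naive cells (log2 fold change -0.56, SE 0.15, adjusted p = 0.0333, limma). Its call was lost when any 1 of the 6 libraries compared was left out, and with the length correction. Kif23, a kinesin of the central spindle in cytokinesis, had 56.6, 63.6 and 55.4 scaled CPM at d35, against 75.8, 69.3 and 75.2 in naive cells (log2 fold change -0.32, SE 0.08, adjusted p = 0.0216, limma). Mki67, the proliferation antigen Ki-67, had 40.3, 51.6 and 27.4 scaled CPM at d35, against 56.5, 52.6 and 45.9 in naive cells. Its d35 replicate 2 lay within the naive range, and the log2 fold change of -0.41 did not pass the test (SE 0.18, adjusted p = 0.146, limma). It was -0.61 without d35 replicate 2, where it passed (adjusted p = 0.0191, limma), -0.17 without d35 replicate 3 and -0.18 with the length correction.

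**Figure D3:**
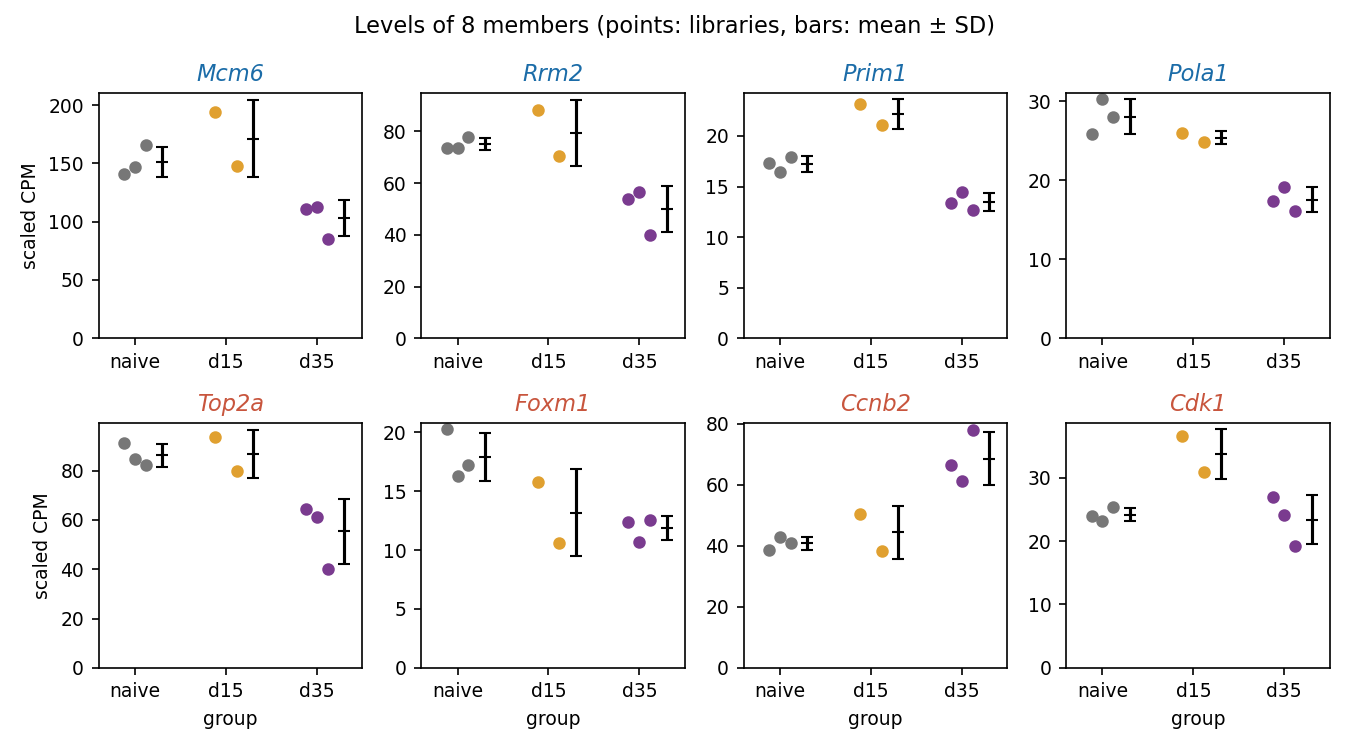
Scaled CPM (y axis, from 0) of 8 members in each library (points) with the group mean and SD (bars), by group. Mcm6, Rrm2, Prim1, Pola1 and Top2a are lowest at d35, Ccnb2 is highest there with 61.1 to 78.0 scaled CPM, Foxm1 lies at 10.7 to 12.5 at d35, and Cdk1 is highest at d15 with 30.9 and 36.5.

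Among the genes of the spindle checkpoint and of mitotic exit, Bub1b, a checkpoint kinase-like protein and the mitotic member with the highest mean value, had 118, 92.2 and 91.4 scaled CPM at d35, against 93.6, 105 and 105 in naive cells. Bub1, its paralog, averaged 16.2 ± 3.32 scaled CPM at d35 and 16.0 ± 4.45 in naive cells (SD, n = 3 each). Both overlapped between the groups. Cdc20, the activator of the anaphase-promoting complex, had 30.2, 22.7 and 23.2 scaled CPM at d35, against 19.1, 20.2 and 20.1 in naive cells. Birc5, survivin of the chromosomal passenger complex, had 26.4, 27.7 and 25.8 scaled CPM at d35, against 20.2, 21.6 and 24.1 in naive cells. Neither passed the test (adjusted p = 0.137 for Cdc20 and 0.0902 for Birc5, limma), although every d35 library lay above every naive library for both, as it did for Ccnb2. Without d35 replicate 1 the log2 fold change of Cdc20 was 0.20, against 0.33 with it. These 3 of 22 mitotic members compare with 20.7% of all genes tested that did so. For 5 of 22 every d35 library lay under every naive library, beside 15.9% of all genes tested. At an unadjusted p under 0.05 (limma), in either direction, there were 11 of 22 mitotic members, beside 32.4% of all genes tested. The other members were the kinases Aurka, Aurkb, Plk1 and Melk, the motors and kinetochore proteins Kif11, Cenpe and Cenpf, the spindle proteins Tpx2 and Nusap1, and the ubiquitin-conjugating enzyme Ube2c. None passed the test. Aurkb, the kinase of the chromosomal passenger complex, averaged 20.0 ± 2.98 scaled CPM at d35 and 27.9 ± 1.15 in naive cells (SD, n = 3 each; adjusted p = 0.0546, limma) and was called in 6 of 19 alternatives, while Plk1, polo-like kinase, averaged 15.5 ± 4.38 at d35 and 13.6 ± 1.29 in naive cells.

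The number of mitotic calls was 4, and it fell to 1 without naive replicate 1 and to 2 without naive replicate 2, naive replicate 3 or d35 replicate 3. Ccnb2 was the call present each time. Top2a lost its call without naive replicate 1 or 2, and Kif23 without naive replicate 1 or 3, without d35 replicate 1 or 3, and with the replicate block.

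The upstream sequences of Ccnb2 and Top2a, the called mitotic members with the largest rise and the largest fall, are shown for comparison (RefSeq, GRCm38.p6, minus strand, chr9:70421555-70421804 for Ccnb2 and chr11:99024190-99024439 for Top2a). Capitals mark exact matches, on either strand, to the CHR motif TTTGAA and to the CCAAT box.
Ccnb2: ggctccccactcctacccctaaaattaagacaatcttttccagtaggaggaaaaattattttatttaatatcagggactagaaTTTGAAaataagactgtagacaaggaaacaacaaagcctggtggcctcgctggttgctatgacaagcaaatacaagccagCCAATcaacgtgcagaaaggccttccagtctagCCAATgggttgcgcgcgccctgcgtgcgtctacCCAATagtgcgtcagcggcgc
Top2a: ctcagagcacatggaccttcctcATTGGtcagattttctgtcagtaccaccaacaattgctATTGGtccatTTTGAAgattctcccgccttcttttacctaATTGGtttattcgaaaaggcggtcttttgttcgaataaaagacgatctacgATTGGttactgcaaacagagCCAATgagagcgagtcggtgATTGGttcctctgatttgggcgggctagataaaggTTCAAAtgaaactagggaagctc
Ccnb2 has 1 CHR match and 3 CCAAT boxes in these letters, and Top2a has 2 CHR matches and 6 CCAAT boxes. A further CHR match of Ccnb2 begins 5 bases after the start, outside the letters shown. Neither window holds an E2F element in the forms spelled above.

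The S phase and mitotic classes separated most at d35. The mean log2 difference of the 16 S phase members from their naive means was -0.28, -0.23 and -0.56 in d35 replicates 1, 2 and 3, against -0.10, 0.02 and 0.08 in the naive libraries. For the 22 mitotic members it was 0.06, -0.05 and -0.30 in the d35 libraries, against 0.02, -0.01 and -0.01 in the naive libraries. The S phase average thus lay under all naive libraries in each d35 library, and the mitotic average did so in d35 replicates 2 and 3. Within a library, the S phase average minus the mitotic average was -0.34, -0.19 and -0.26 at d35, against -0.12, 0.03 and 0.09 in naive cells. The d35 mean was -0.26 ± 0.08 (SD, n = 3), and under the alternatives its difference from the naive mean lay between -0.32 and -0.22. The d15 libraries stood on the other side, at 0.10 and 0.12. Taken as sums, S phase members held 1.01, 1.11 and 1.01 times the value of mitotic members at d35, against 1.16, 1.26 and 1.35 times in naive cells. No p-value is given for these averages, because the members were chosen with earlier results of these data known.

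**Figure D4:**
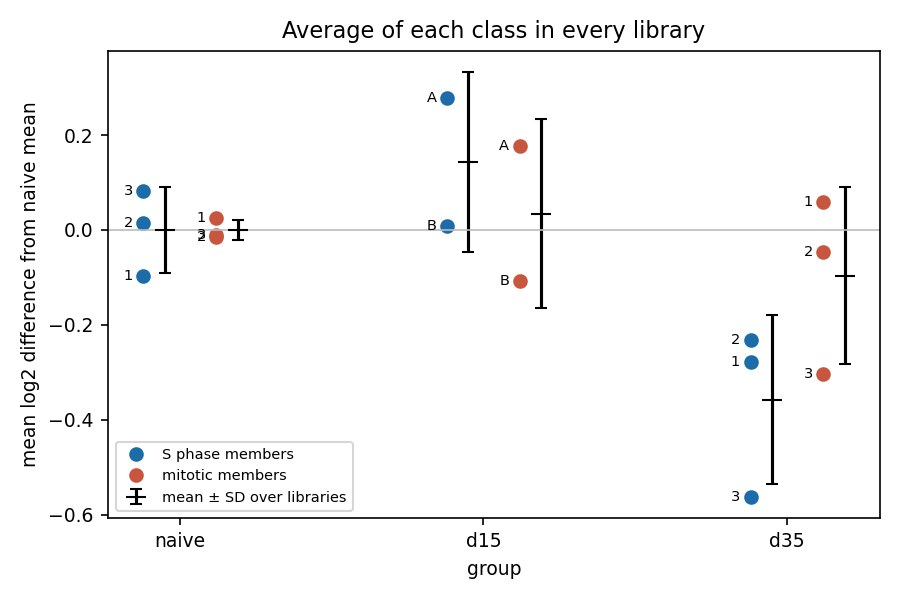
Mean log2 difference from the naive mean (y axis) over the 16 S phase members (blue) and the 22 mitotic members (red) in each library, by group, with the group mean and SD. At d35 all 3 blue points, from -0.56 to -0.23, lie under the naive points, while the red points spread from -0.30 to 0.06.

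At d15 no member passed the test, neither among the 16 S phase nor among the 22 mitotic genes, beside 4.37% of all genes tested that were called in either direction and 2.37% called higher (limma). At an unadjusted p under 0.05 there were 3 S phase and 3 mitotic members, 15.8% of the 38, beside 26.2% of all genes tested. The quasi-likelihood test of edgeR and limma-voom called 0 members, and DESeq2 called 2, Cdk1 and Pcna. In the authors' deposited table of this comparison all 38 members were listed, none had a false discovery rate under 0.05, beside 3.61% of its genes, and the lowest was 0.251, for Pcna.

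Levels of the S phase class at d15 depended on the library. Of the 16 members 14 had a positive fold change, with a median of 0.13 beside 0.01 for all genes tested, but the median was -0.05 without d15 replicate A and 0.29 without d15 replicate B. Pcna had 112 and 108 scaled CPM at d15, against 81.2, 84.5 and 96.8 in naive cells (log2 fold change 0.33, SE 0.09, adjusted p = 0.0639, limma). Cdk1 had 36.5 and 30.9 scaled CPM at d15, against 23.9, 23.2 and 25.3 in naive cells (log2 fold change 0.46, SE 0.14, adjusted p = 0.0755, limma). Prim1 had 23.2 and 21.1 scaled CPM at d15, against 17.3, 16.4 and 17.9 in naive cells (log2 fold change 0.35, SE 0.11, adjusted p = 0.0897, limma). In these 3 genes both d15 libraries lay above all naive libraries. Gins2 had 18.2 and 17.7 scaled CPM at d15, against 11.8, 14.0 and 13.8 in naive cells (log2 fold change 0.42, SE 0.13, adjusted p = 0.0837, limma). For 6 of 16 S phase members both d15 libraries exceeded all naive libraries, beside 25.9% of all genes tested, which is a share not far from that of the whole table. Foxm1 differed in the other direction, with 15.8 and 10.6 scaled CPM at d15, against 20.3, 16.3 and 17.2 in naive cells (log2 fold change -0.44, SE 0.17, adjusted p = 0.135, limma). It did not pass, and the value rested on d15 replicate B: it was -0.17 without that library and -0.71 without d15 replicate A. Mki67 had 44.0 and 42.1 scaled CPM at d15, just under the lowest naive value of 45.9. The median of the mitotic class was 0.02, with 15 positive and 7 negative fold changes.

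Between the times, S phase genes were lower at d35 than at d15. All 16 members had a negative fold change, and 8 fell past the threshold: the 7 named above and Pcna. Of all genes tested 7.39% were called between the times and 2.80% were called lower. The median log2 fold change of the S phase class was -0.49 and that of all genes tested was -0.00. The 2 comparisons share the d35 libraries, so they are not separate evidence. Pcna had 83.1, 86.4 and 77.4 scaled CPM at d35, against 112 and 108 at d15 (log2 fold change -0.41, SE 0.09, adjusted p = 0.0235, limma). Prim1 had 13.4, 14.4 and 12.6 scaled CPM at d35, against 23.2 and 21.1 at d15 (log2 fold change -0.68, SE 0.11, adjusted p = 0.00622, limma). Mcm7 had 47.5, 48.8 and 39.5 scaled CPM at d35, against 73.8 and 63.0 at d15 (log2 fold change -0.59, SE 0.11, adjusted p = 0.00992, limma). In all 3 the groups did not overlap, as for 13 of 16 members, beside 19.5% of all genes tested. Mcm6 had the largest fold of the class, 1.65-fold lower at d35 than at d15 (log2 fold change -0.73, SE 0.14, adjusted p = 0.0133, limma), with 195 and 148 scaled CPM at d15. With d15 replicate A left out the count was 0, with d15 replicate B left out 4 and with d35 replicate 3 left out 5, and it was 4 when only the d35 and d15 libraries were fitted.

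Among mitotic members Ccnb2 rose between the times, with 66.3, 61.1 and 78.0 scaled CPM at d35, against 50.4 and 38.3 at d15 (log2 fold change 0.62, SE 0.13, adjusted p = 0.0187, limma). Top2a fell, with 64.5, 61.3 and 40.1 scaled CPM at d35, against 93.6 and 79.7 at d15 (log2 fold change -0.66, SE 0.17, adjusted p = 0.0402, limma). Cdk1 fell as well, with 26.9, 24.0 and 19.2 scaled CPM at d35, against 36.5 and 30.9 at d15 (log2 fold change -0.52, SE 0.14, adjusted p = 0.0491, limma). The d35 values of Cdk1 lay around those of naive cells, and its d15 values stood above both. These calls, 9.09% of the class lower and 4.55% higher, beside 2.80% and 4.59% of all genes tested, rested on few libraries. Only Ccnb2 passed without naive replicate 1, 2 or 3 or without d15 replicate A, and no mitotic member passed without d15 replicate B or in the fit of the d35 and d15 libraries alone.

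Within the tumor groups, cell cycle genes moved together between libraries. All 38 members were higher in d15 replicate A than in d15 replicate B, beside 50.1% of all genes tested. In d35 replicate 3, 33 of 38 members (86.8%) had the lowest value of the d35 libraries, beside 36.5% of all genes tested, and 28 had the lowest value of all 8 libraries. S phase members summed to 622.7 scaled CPM in d35 replicate 3, against 782.1 and 793.2 in d35 replicates 1 and 2, and to 1161 in d15 replicate A against 939.5 in d15 replicate B. The exceptions in d35 replicate 3 were Tyms, Ccna2, Cdc20, Ccnb2 and Foxm1, and Ccnb2 and Foxm1 had their highest d35 value there. Recovered reads numbered 39572173 in d35 replicate 3, against 30756658 and 33374738 in d35 replicates 1 and 2, and 30867016 in d15 replicate A against 32881507 in d15 replicate B. Their part in these differences was not tested.

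Markers of other cells also differed between the groups. Of 12 tested monocyte and interstitial macrophage markers, 7 were called higher and 1 lower at d35 than in naive cells, beside 9.86% and 6.32% of all genes tested, with a median log2 fold change of 0.62. Their summed values were 2197 to 3343 scaled CPM in d35 libraries and 1603 to 1999 in naive libraries, and C1qb, a complement gene of interstitial macrophages, averaged 99.3 at d35 and 1.26 in naive cells. Transcripts of C1qb were thus rare in naive libraries and more abundant in d35 libraries. Of 10 endothelial markers, 7 were called lower at d35 and 3 at d15 than in naive cells, beside 6.32% and 2.00% of all genes tested. None was called between the times. The 10 endothelial markers summed to 269.6 to 334.0 in naive, 185.9 to 218.5 in d15 and 170.9 to 215.2 in d35 libraries. Of 13 epithelial or tumor markers in the table, 4 were called higher and 1 lower at d35 than in naive cells. All genes tested had 9.86% called higher and 6.32% lower. The epithelial or tumor markers summed to 1224 to 1346 at d35 and 1446 to 1448 in naive libraries. Most of that sum was Krt19, which averaged 897 at d35 and 1049 in naive libraries (not called). Krt8, a keratin of epithelial cells, averaged 15.0 scaled CPM at d35 and 0.262 in naive cells, and Cldn4 had 0 reads in all naive libraries. Epcam, the call lower, averaged 120.2 scaled CPM at d35 and 201 in naive cells, so members of this list moved in both directions. B cell markers summed to 3.78 to 6.93 at d35 and 10.4 to 15.5 in naive libraries, and fibroblast markers to 9.94 to 16.8 at d35 and 12.8 to 33.5 in naive libraries. T and natural killer cell markers summed to 394.8 to 437.8 at d35 and 376.5 to 410.2 in naive libraries, nearly all of it Cd2. Within that list Il7r, the interleukin 7 receptor, was called higher, with 30.1, 5.89 and 10.9 scaled CPM at d35, against 1.66, 1.00 and 0.725 in naive libraries (adjusted p = 0.00363, limma), in all 19 alternatives. Dendritic cell markers summed to 18.1 to 22.1 at d35 and 15.5 to 15.8 in naive libraries. The 3 neutrophil markers analysed here summed to 40.6 to 76.0 at d35 and 62.3 to 79.6 in naive libraries, most of it Csf3r. Of these, S100a9 was called higher, with 5.92, 0.441 and 2.00 scaled CPM at d35, against 0.0168, 0.161 and 0.265 in naive libraries (adjusted p = 0.0497, limma), in 6 of 18 alternatives. Early response and heat shock genes, which respond to tissue dissociation, summed to 2071, 2934 and 4595 in the d35 libraries and to 2588, 6267 and 5807 in the naive libraries. The part of any of these in the cell cycle differences was not tested.

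The share of promoters with a motif match was compared between the classes as a description, without a test. RefSeq promoter windows of 300 bases (250 before to 50 after the start, GRCm38.p6) were matched for 32 of 38 members, 14 of the S phase and 18 of the mitotic class. No window was used here for Foxm1, Mcm4, Gins2, Tpx2, Aurkb and Ccna2. An E2F element, in any of the 3 forms spelled above and on either strand, stood in 9 of 14 S phase genes (64.3%), in 3 of 18 mitotic genes (16.7%: Ccnb1, Cdk1 and Mki67) and in 9.20% of 27025 genes with a window. The CHR motif TTTGAA stood in 12 of 18 mitotic genes (66.7%), in 1 of 14 S phase genes (7.14%: Mcm2) and in 20.2% of all genes. CCAAT stood in 83.3% of mitotic genes, 71.4% of S phase genes and 41.1% of all genes. On the 250 upstream bases alone, a window added after seeing the data, the CHR share of mitotic genes was 38.9%, beside 18.3% of all genes, and an E2F element stood in 7 of 14 S phase genes, beside 7.68% of all genes. The E2F forms can overlap one another on opposite strands, and a gene counted once however many matches it had.

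**Figure D5:**
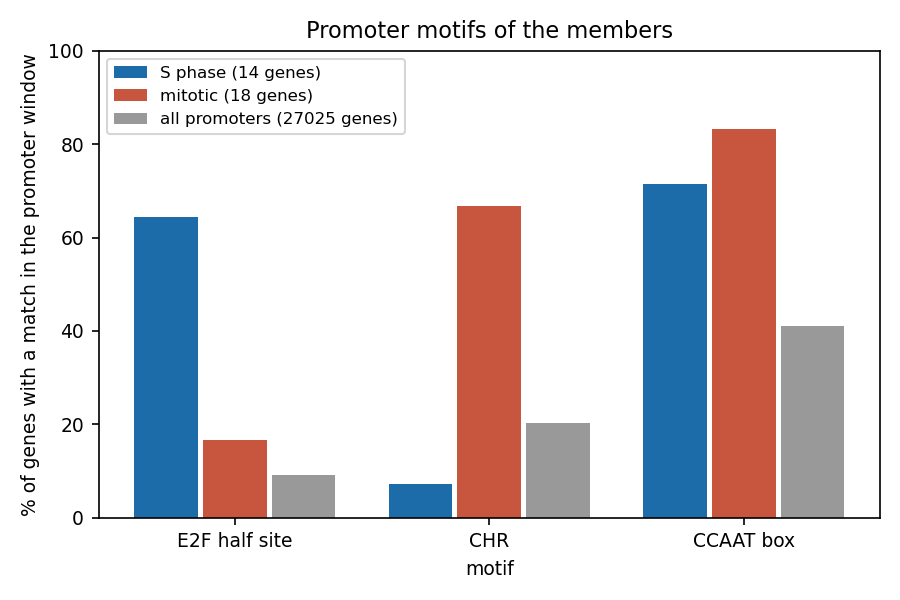
Share of genes (y axis, %) with at least 1 match in the 300-base promoter window, for E2F elements, the CHR motif and the CCAAT box, in the 14 S phase genes (blue), the 18 mitotic genes (red) and all 27025 genes (grey). The E2F bar is highest for S phase genes at 64.3% and the CHR bar for mitotic genes at 66.7%.

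Other genes of the cycle were followed in lists of their own. At d35 against naive cells the median log2 fold change was -0.18 for 39 further replication genes, -0.14 for 25 genes of nucleotide supply, repair and chromatin, -0.18 for 17 E2F and MuvB factors and -0.12 for 79 further mitotic genes. It was 0.10 for 12 cyclins and kinases of cycle entry, -0.04 for 12 inhibitors and pocket proteins and 0.05 for 15 damage checkpoint genes, beside -0.00 for all genes tested. Among 12 tested cyclins and kinases of cycle entry, Ccnd2, cyclin D2, averaged 191 scaled CPM at d35 and 288 in naive cells (log2 fold change -0.59, adjusted p = 0.0184, limma), and Cdk6, its kinase partner, averaged 57.2 at d35 and 82.7 in naive cells (log2 fold change -0.54, adjusted p = 0.0153, limma). Cdk4, the other kinase partner, was higher, at 95.9 scaled CPM at d35 and 76.0 in naive cells (log2 fold change 0.33, adjusted p = 0.0265, limma). These calls are 16.7% of the list lower and 8.33% higher, beside 6.32% and 9.86% of all genes tested. Against d15, 5 of the 12 (41.7%) fell and none rose, beside 2.80% and 4.59% of all genes tested, with Ccne2, cyclin E2, at 14.2 scaled CPM at d35 and 30.7 at d15 (log2 fold change -1.03, adjusted p = 0.0115, limma). The other 4 were Ccne1, Ccnd2, Myc and Cdk6, called in 15, 13, 9 and 8 of 18 alternatives. Myc was not called with edgeR or limma-voom, and Cdk6 not with limma-voom. At d15 none of this list was called.

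E2f1, an activating E2F, had 54.2, 56.0 and 54.0 scaled CPM at d35, against 70.4, 67.1 and 73.0 in naive cells (log2 fold change -0.35, SE 0.07, adjusted p = 0.0123, limma). It was called in each of the 19 alternatives, and its d35 libraries were close together. E2f7, a repressor E2F, was the other call among 17 factors (11.8% lower, beside 6.32% of all genes tested), at 3.06 scaled CPM at d35 and 5.29 in naive cells (log2 fold change -0.63, adjusted p = 0.0416, limma). The E2f7 call held in 11 of 19 alternatives, not with limma-voom or the stricter filter. E2f2, another activator, was the 1 call at d15 (5.88% lower, beside 2.00% of all genes tested), at 20.0 scaled CPM at d15 and 33.6 in naive cells (log2 fold change -0.73, adjusted p = 0.0422, limma). That call held in 12 of 18 alternatives, not with limma-voom or the length correction. Against d15, E2f1, Tfdp1 and E2f8 were called lower at d35, 17.6% of the factors beside 2.80% of all genes tested, and none rose. The E2f8 call held in 5 of 18 alternatives. Of 12 inhibitors and pocket proteins, Rbl1, the pocket protein p107, fell to 76.9 scaled CPM at d35, against 117 in naive cells (log2 fold change -0.62, adjusted p = 0.0115, limma). Btg2, an antiproliferative gene, fell to 426 scaled CPM at d35, against 822 in naive cells (log2 fold change -0.95, adjusted p = 0.025, limma), and Rb1 fell also. Btg1 rose (log2 fold change 0.30, adjusted p = 0.0411, limma). These are 3 calls lower and 1 higher among the 12, beside 6.32% and 9.86% of all genes tested. Rbl1 held in all 19 alternatives, Btg2 in 16, Rb1 in 12 and Btg1 in 9. The Btg1 call was lost when any 1 library was left out. Against d15 the inhibitor gene Cdkn2b was the only call, higher at d35, beside 4.59% of all genes tested. It averaged 5.53 scaled CPM at d35 and 1.99 at d15. The Cdkn2b call held in 11 of 18 alternatives, not with limma-voom.

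Of 39 further replication genes, 5 fell at d35 against naive cells and none rose: Lig1, Timeless, Chtf18, Tipin and Pole. The 5 are 12.8% of the list, beside 6.32% of all genes tested that were called lower and 9.86% called higher, and the quasi-likelihood test of edgeR did not call Pole. Timeless, a fork protection factor, averaged 5.52 scaled CPM at d35 and 9.59 in naive cells (log2 fold change -0.70, adjusted p = 0.0262, limma), and Lig1, DNA ligase I, averaged 14.1 at d35 and 19.5 in naive cells (log2 fold change -0.45, adjusted p = 0.0213, limma). Between the times all 39 fold changes were negative, with a median of -0.31 and 2 calls, Gins4 and Timeless. Those 2 are 5.13% of the list, beside 2.80% of all genes tested. At d15 the licensing inhibitor Gmnn, geminin, and Gins4, a GINS subunit, were called higher than in naive cells, beside 2.37% of all genes tested. The Gins4 call held in 7 of 18 alternatives, not with edgeR or limma-voom, and its log2 fold change of 0.36 was 0.17 with the length correction. Gmnn averaged 34.2 scaled CPM at d15 and 23.1 in naive cells (log2 fold change 0.55, adjusted p = 0.0231, limma). Among 25 genes of nucleotide supply, repair and chromatin, Brca2, a recombination mediator, fell to 3.71 scaled CPM at d35, against 8.64 in naive cells (log2 fold change -1.02, adjusted p = 0.00539, limma). The histone genes H2afx and H2afz were called higher at both times against naive cells, and 3 calls of 25 at d35 compare with 16.2% of all genes tested. At d35 the call of H2afz held in 5 of 19 alternatives, not with edgeR, limma-voom or another filter, and its log2 fold change was 0.07 with the length correction, against 0.32 in the fit as reported. At d15 it held in 8 of 18. H2afx held in 12 of 19 alternatives at d35 and 11 of 18 at d15, and not with the length correction at either time.

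Of 79 further mitotic genes, 2 rose and 6 fell at d35 against naive cells. These are 2.53% and 7.59% of the list, beside 9.86% and 6.32% of all genes tested, so the share lower was near that of the whole table and the share higher was under it. Cenpa, the centromeric histone, had 44.3, 40.5 and 43.2 scaled CPM at d35, against 23.8, 26.7 and 26.1 in naive cells (log2 fold change 0.72, adjusted p = 0.00177, limma), and 29.0 and 23.7 at d15. Its d35 libraries lay far above all others, as for Ccnb2, and it was called in each of the 19 alternatives of the d35 and naive comparison. Pbk, a mitotic kinase, fell to 9.02 scaled CPM at d35, against 17.0 in naive cells (log2 fold change -0.84, adjusted p = 0.00552, limma). Anln, anillin of the cytokinetic ring, fell to 67.2 scaled CPM at d35, against 99.4 in naive cells (log2 fold change -0.56, adjusted p = 0.0102, limma). At d15, 4 of the 79 (5.06%) rose and none fell, beside 2.37% and 2.00% of all genes tested, led by Wee1, the kinase that inhibits Cdk1, at 24.6 scaled CPM at d15 and 12.6 in naive cells (log2 fold change 0.91, adjusted p = 0.00849, limma). Between the times 10 fell and 1, Cenpa, rose, which is 12.7% and 1.27% of the list, beside 2.80% and 4.59% of all genes tested. Among 15 damage checkpoint genes, Gadd45g, a stress-inducible growth arrest gene, fell to 85.9 scaled CPM at d35, against 145 in naive cells (log2 fold change -0.75, adjusted p = 0.00115, limma), and Atr fell, while Bax and Mdm2 rose. Calls were 13.3% of the list lower and 13.3% higher, beside 6.32% and 9.86% of all genes tested. Bax held in 18 of 19 alternatives, not with the length correction, Atr in 16 and Mdm2 in 15. Chek2, a checkpoint kinase, rose at d15, at 36.9 scaled CPM at d15 and 26.2 in naive cells (log2 fold change 0.48, adjusted p = 0.0253, limma). It was the 1 damage checkpoint call at d15, 6.67% of the list, beside 2.37% of all genes tested called higher. Over these lists and the 3 comparisons 67 calls were examined, of which 8 were made in every alternative and none changed sign. Those 8 were Gadd45g in both d35 comparisons and, at d35 against naive cells, Anln, Brca2, Cenpa, E2f1, Pbk and Rbl1. Leaving out 1 library removed between 11 calls, without d35 replicate 2, and 43 calls, without naive replicate 2.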

How the data were processed

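Libraries were made from 1 ng of RNA of 20000 sorted cells with a SMART-Seq v4 kit, per the labels' protocols. The submitters' processing notes name STAR 2.5, mm10 and edgeR, while the counting program, annotation and use of strand remain not given in the sources used here. The authors deposited a scaled signal per gene, (reads + 0.5) over (scaled library size + 1) as CPM, and whole reads were recovered from 100% of its values within 0.001. Their deposited d15 table holds a log2 fold change, p-values and a likelihood-ratio score per gene, as its file headers say. The d15 columns are numbered 2 and 3 while the titles carry 1 and 2, so they were assigned only to the group, as replicates A and B.

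The deposited values are scaled and not raw counts. The main test was therefore limma 3.58.1 with a trend on log2(value + 1), and count tests were alternatives. The limma model was fitted to all 8 libraries for the 11273 genes that reached a value of 1 in 2 or more libraries, with Benjamini-Hochberg adjustment within each comparison. On simulated data it recovered 40.3% of 1.5-fold changes at d15 and 58.2% at d35 against naive. Each simulation changed 67 genes by 1.5-fold, 67 by 2-fold and 66 by 4-fold, drawn from tested genes of any level. Of the 143 simulated calls at d15 7.69%, and of the 163 at d35 7.36%, fell on unchanged genes. Fewer genes were called there than in the real data, so these shares may not carry over to the members. A gene that did not pass may thus still have changed. On recovered reads, the quasi-likelihood test of edgeR 4.0.16 called 417 genes at d15, 1760 at d35 against naive and 827 between the times. DESeq2 1.42.0, limma-voom, other pseudocounts, filters and scalings, a transcript length correction and leaving out each library were further alternatives. Fold changes of low genes are understated by the pseudocount.

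Members, gene lists and alternatives were chosen with earlier results of these data known. Values are given in full for members called in any comparison, the 5 highest by mean value in each class, Mki67 and Mcm5. Of each other cell cycle list the 3 members with the smallest adjusted p and every called member of lists with up to 5 calls qualified for naming. The remaining members are named to account for the whole list. Coordinates are GENCODE vM21 on mm10.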

Additional observations from a re-analysis of the deposited data

How the results depend on the processing

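No member called in a comparison changed sign under any alternative, and among members not called 19 of 38 changed sign in some alternative at d15, 10 of 27 at d35 against naive and 10 of 27 between the times. Over all genes, the 493 calls at d15 became 12 to 1079 with a library left out, 1451 with DESeq2 and 1179 when only the groups compared were fitted. At d35 against naive, 1824 became 635 to 2294 with a library left out, 2412 with DESeq2 and 1211 with the length correction. Between the times, 833 became 193 to 1052 with a library left out, 1368 with DESeq2 and 421 with only the groups compared.

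Members called at d15 numbered 0, and 0 to 2 with a library left out, 2 with DESeq2 and 1 with only the groups compared. At d35 against naive, leaving out a library turned the 11 called members into 3 to 12, the 7 S phase members lower into 1 to 8 and the 4 mitotic members called into 1 to 5, and DESeq2 gave 14, 8 and 6. Between the times the 11 called members became 1 to 11 with a library left out and 4 with only the groups compared. DESeq2 called 16. With a library left out, the 8 S phase members lower became 0 to 9 and the 3 mitotic members called became 0 to 4. DESeq2 gave 11 and 5, and the fit of only the groups compared gave 4 and 0. The cause of these shifts was not tested, beyond the fewer libraries each such fit has.

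The naive and d35 libraries share replicate numbers 1 to 3. Deviations of same-numbered libraries correlated across genes at -0.01, -0.05 and 0.15, and those of differently numbered libraries at -0.10 to 0.10. Correlations over all genes cannot tell whether a number marks a shared batch or pair. With the replicate block, fitted on these 6 libraries, 1460 genes, 9 members, 5 S phase members lower and 4 mitotic members were called at d35 against naive. No paired analysis was possible for the d15 comparisons because the d15 columns carry other numbers than the sample titles.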
